A study of Mus musculus with 8 samples.

Results

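Phagocytes clear dying cells and altered lipoproteins through surface receptors, and 9 such receptor genes and Cd5l, a secreted protein of macrophages, are described here in CD11b+ bone marrow (BM) cells of mice. The genes were selected on their function, by symbol, with the authors' fold changes and p-values for these samples already known, and all 10 were found once in the authors' table of 41018 genes. Axl, Mertk and Timd4 encode receptors for apoptotic cells, Cd36, Msr1, Marco and Stab1 are scavenger receptors, Mrc1 is the mannose receptor, and Lrp1 is an endocytic receptor of the LDL receptor family. CD11b+ cells had been taken with magnetic beads from flushed femurs and tibiae after lysis of red blood cells. The series holds 4 samples from PC-EV-educated mice and 4 from PBS mice, all C57BL/6 females of 5 to 8 weeks with no genetic change named. PC-EV-educated mice received 5 µg of extracellular vesicles (EVs) of PAN02, a mouse pancreatic adenocarcinoma line, by injection 3 times per week for 3 weeks, and the control mice received PBS alone, although 1 field of their labels reads untreated. For its qPCR the study pooled several animals per point, but pooling is not stated for the sequenced libraries.

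A dying cell exposes phosphatidylserine on its surface. Timd4 binds this lipid directly, whereas the receptor tyrosine kinases Axl and Mertk reach it through the bridging proteins Gas6 and, for Mertk, Pros1. Scavenger receptors take up modified low-density lipoprotein and many other ligands, and in BM the macrophages of erythroblastic islands and of the stroma engulf expelled nuclei and aged neutrophils.

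The measure given throughout is the authors' Max group mean, the larger of the mean levels of the PC-EV-educated and PBS samples, in RPKM, the unit in which reads are scaled to a kilobase of exons and to the total reads of the sample. The table has 1 such value per gene for both groups, and the mean of the other group lay at or below each value. The levels thus describe the cell fraction and not a difference between PC-EV-educated and PBS mice. The Max group mean does not tell which group was higher, and the higher group can differ between genes. The authors' own comparison of the groups was not used here. A ratio or order of 2 genes can therefore set a mean of PC-EV-educated samples against a mean of PBS samples. The spread between samples is unknown, no SD or n can stand beside a level, and no test was made. The unit is not named in the table and was read from the values. Among genes with few reads the product of level and exon length fell on 8 fixed steps, as many as there are samples, for 4277 of 4414 genes (96.9%). Sums of 2 steps recurred within 2 sets of 4, for 76 to 124 genes per pair, and for 0 genes between the sets. Such steps arise under any unit scaled per exon length and per sample, so they do not by themselves identify RPKM. The levels summed to 404642, and their products with exon length in kilobases to 770011. Under the definition of RPKM the steps correspond to 42231558 to 53507559 reads per sample. The 95% Poisson intervals below rest on the reads recovered in this way and cover counting error only.

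All 10 genes were present, and their levels spanned a 37.4-fold range. Axl was the most abundant at 18.0 RPKM and Stab1 the least at 0.481 RPKM, with a median over the 10 genes of 2.62 RPKM. In all, 8 of the 10 genes lay at 1 RPKM or more and 3 at 10 RPKM or more. Of the 28225 genes in the table with a level above 0, 32.7% reached 1 RPKM and 10.7% reached 10 RPKM, and the median was 0.102 RPKM. The median of the 10 genes stood above 75.9% of these genes, or above 64.8% of the 18041 genes among them with a RefSeq protein. The 10 genes together made up 0.0151% of the summed level of the table. Axl, Cd5l, Mrc1 and Lrp1 held 84.7% of that small share, and the step from Lrp1 down to Mertk, 3.03-fold, was the widest between neighbours in the order.

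**Figure D1:**
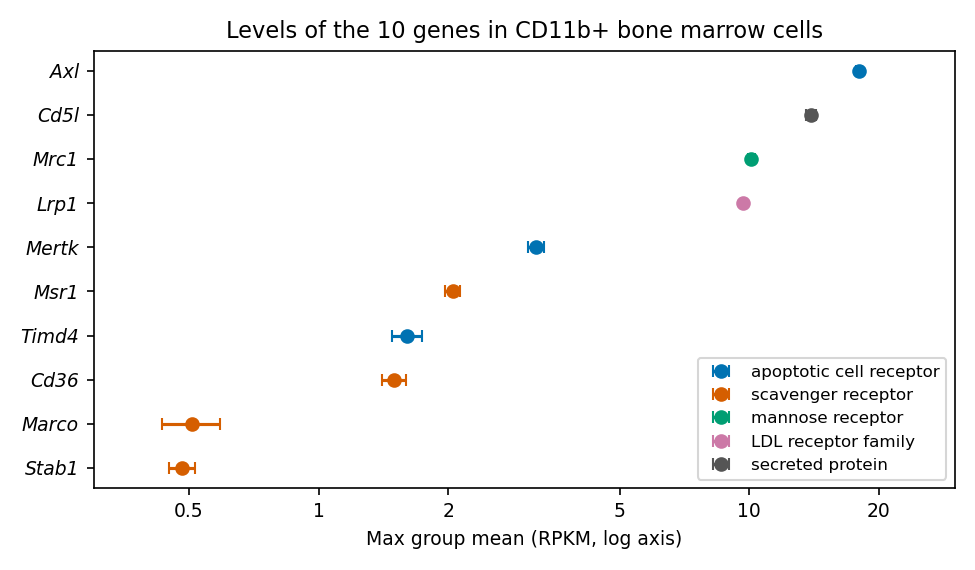
Max group mean of each of the 10 genes in RPKM on a log axis, with bars for the 95% Poisson interval (counting error only) and colours for the kind of protein. Axl, Cd5l, Mrc1 and Lrp1 sit between 9.68 and 18.0 RPKM, and Marco and Stab1 at about 0.5 RPKM.

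Promoters of the 10 genes were searched for 4 short motifs. GAGGAA is the core of the element bound by PU.1, the transcription factor on which myeloid cells depend. It was searched on both strands, as GAGGAA or TTCCTC, in RefSeq promoters (GRCm38.p6) that run from 250 bases before to 50 bases after each start. Promoters of 9 of the 10 genes were matched by symbol, and 5 held the letters, those of Axl, Cd5l, Marco, Mrc1 and Stab1, against 28.3% of all 32851 promoters. Those 5 held the 3 most abundant of the 10 genes and also the least abundant, Marco and Stab1. The 250 bases before the start are shown for the 3 most abundant genes, with the matches in capitals. They lie at chr7:25788734-25788983 on the minus strand for Axl, chr3:87357631-87357880 on the plus strand for Cd5l and chr2:14229164-14229413 on the plus strand for Mrc1.
Axl: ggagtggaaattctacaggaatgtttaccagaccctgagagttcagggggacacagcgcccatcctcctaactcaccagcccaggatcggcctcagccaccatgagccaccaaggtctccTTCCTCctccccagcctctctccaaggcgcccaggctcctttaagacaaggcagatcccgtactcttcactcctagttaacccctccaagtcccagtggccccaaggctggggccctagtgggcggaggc
Cd5l: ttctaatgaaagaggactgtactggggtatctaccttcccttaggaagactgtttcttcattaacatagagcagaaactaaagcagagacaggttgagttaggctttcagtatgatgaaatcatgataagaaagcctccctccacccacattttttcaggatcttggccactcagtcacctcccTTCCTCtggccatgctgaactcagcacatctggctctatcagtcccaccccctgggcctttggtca
Mrc1: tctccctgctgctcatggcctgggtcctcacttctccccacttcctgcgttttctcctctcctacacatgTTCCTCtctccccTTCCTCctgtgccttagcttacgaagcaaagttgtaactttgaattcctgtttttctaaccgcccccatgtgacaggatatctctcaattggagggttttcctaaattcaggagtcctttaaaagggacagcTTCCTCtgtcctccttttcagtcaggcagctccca
Mrc1 held the letters at 3 places, from 180, 167 and 35 bases before the start, and Axl and Cd5l at 1 place each, from 130 and 66 bases before it. The GC box GGGCGG, searched on both strands as GGGCGG or CCGCCC, was found in 5 of the 9 promoters, those of Axl, Cd36, Lrp1, Mertk and Mrc1, against 35.7% of all promoters. Neither the TATA box TATAAA (13.6% of all promoters) nor the AP-1 element TGAGTCA (5.20%) was in the windows of the 9 genes. Each of the 9 genes had 1 window, so other starts of these genes were not searched. The 250 bases used for Cd36, at chr5:17835897-17836146 on the minus strand, lay inside the gene (17781690 to 17888801). A match is a run of letters only, and binding was not measured.

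Of the 3 receptors for apoptotic cells among the 10 genes, Axl was the most abundant and Timd4 the least. Axl (ENSMUSG00000002602, chromosome 7, 25757273 to 25788705, GRCm38), a kinase that binds Gas6, had a level of 18.0 RPKM (95% Poisson interval 17.7 to 18.3). This rested on 15310 to 19398 reads over the 4 samples of the higher group, the range reflecting which samples those were. Axl stood above 93.9% of the genes with a level above 0. Mertk (ENSMUSG00000014361, chromosome 2, 128698956 to 128802894), the kinase of the same family through which macrophages engulf dying cells, had 3.20 RPKM (3.07 to 3.33), and Axl was 5.63 times as high. Timd4 (ENSMUSG00000055546, chromosome 11, 46810800 to 46844332), the phosphatidylserine receptor of resident macrophages, had 1.60 RPKM (1.48 to 1.74). The intervals of these 3 receptors did not overlap, but they cover counting error only and not the spread between samples.

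The remaining kinase of the family, Tyro3, had 0.0268 RPKM on 28 to 36 reads, below 0.1 RPKM and far under Axl and Mertk. Among 12 other receptors for apoptotic cells 6 reached 1 RPKM, with a median of 2.12 RPKM. The highest were Cd300lb and Cd300lf, myeloid receptors of the CD300 family that bind lipids of dying cells, at 53.1 and 43.6 RPKM, followed by Cd14, the co-receptor for lipopolysaccharide, at 15.7 RPKM. All 3 exceeded Mertk and Timd4, and Cd14 was below Axl. The integrin chains Itgav, Itgb3 and Itgb5, which pair to bind dying cells through Mfge8, had 4.50, 15.0 and 3.68 RPKM.

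RNA of the bridging proteins of Axl and Mertk was low beside that of the receptors in this fraction, and protein was not measured. Gas6 had 0.514 RPKM and Pros1, protein S, had 0.761 RPKM, so that Axl stood 35.0 and 23.7 times as high. Both still lay above 0.102 RPKM, the median of genes with a level above 0. Mfge8, which links phosphatidylserine to integrins, had 0.325 RPKM, and Edil3, a protein of the same kind, 0.00687 RPKM. RNA of other soluble ligands was abundant. Anxa1, annexin A1, had 761 RPKM, Thbs1, thrombospondin 1 and a ligand of Cd36, 162 RPKM, and Lgals3, galectin 3, 149 RPKM. The subunits of C1q, which coats dying cells, lay between 20.1 RPKM for C1qc and 34.7 RPKM for C1qa. Of the 10 ligands 6 thus reached 10 RPKM and the other 4 lay below 1 RPKM.

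Of the genes for the engulfment step itself, more lay at high levels than of the receptors. Of 11 such genes 10 reached 1 RPKM and 7 reached 10 RPKM, with a median of 12.6 RPKM. The highest were Rac2, a small GTPase of blood cells, at 337 RPKM, its upstream GTPase Rhog at 196 RPKM and Rac1 at 45.1 RPKM. Elmo1 and Dock1, which together activate Rac, had 11.6 and 3.69 RPKM, against 38.6 RPKM for the haematopoietic Dock2. Gulp1, an adaptor of engulfment receptors, was read at 0.00831 RPKM, on at most 7 reads.

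**Figure D2:**
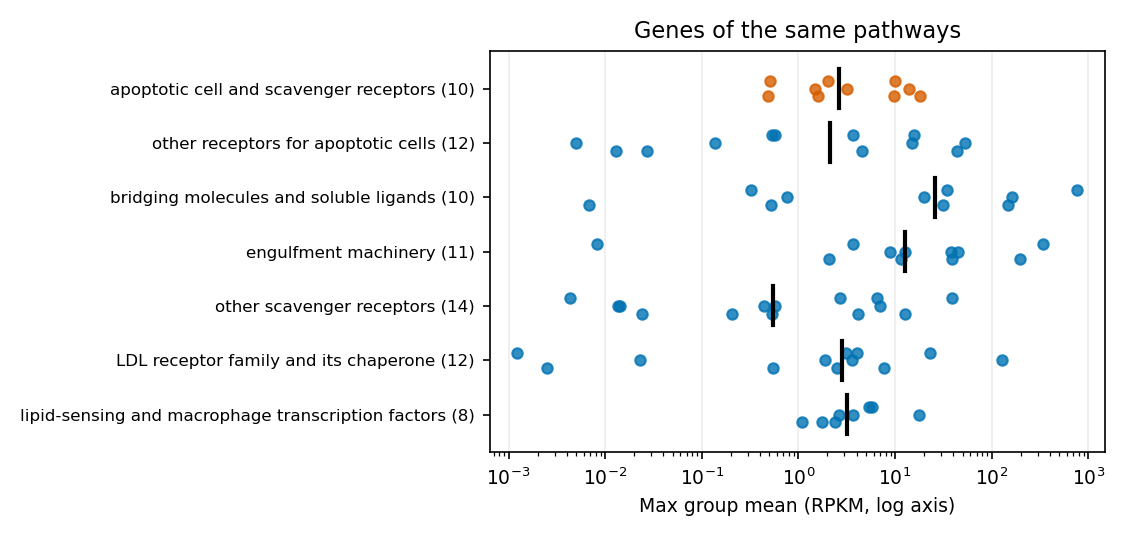
Max group mean in RPKM on a log axis for the 10 genes (orange) and 6 lists of genes from the same pathways (blue), 1 point per gene, with the number of genes in brackets and a black line at each median. The medians run from 0.552 RPKM for other scavenger receptors to 25.8 RPKM for bridging molecules and ligands, with 2.62 RPKM for the 10 genes.

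The scavenger receptors proper lay in the lower part of the order. Msr1 (ENSMUSG00000025044, chromosome 8, 39581685 to 39642673), the class A receptor for acetylated lipoprotein, was the highest of them at 2.05 RPKM (95% Poisson interval 1.96 to 2.13). Cd36 (ENSMUSG00000002944, chromosome 5, 17781690 to 17888801), a class B receptor for oxidized lipoprotein and long-chain fatty acids, had 1.50 RPKM (1.40 to 1.60). Its interval overlapped that of Timd4, so the order of these 2 genes was not resolved. Marco (ENSMUSG00000026390, chromosome 1, 120474538 to 120505024), a class A receptor for bacteria and particles that marks macrophages of the marginal zone of the spleen, had 0.508 RPKM (0.433 to 0.591). Marco had the fewest reads of the 10 genes, 165 to 209, and Msr1 was 4.03 times as high. Stab1 (ENSMUSG00000042286, chromosome 14, 31139013 to 31168641), the class H receptor stabilin 1, had 0.481 RPKM (0.449 to 0.515), which overlapped the interval of Marco. The last 112 bases of the Stab1 gene are shared with Nt5dc2 on the opposite strand, whose level of 2.22 RPKM was 4.61 times that of Stab1. The sources used here do not tell whether the authors counted reads by strand, so part of the Stab1 level may be reads of Nt5dc2. The 112 shared bases are few beside the 10288 exon bases of Stab1.

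Relatives of these receptors covered a wider range. Of 14 other scavenger receptor genes 6 reached 1 RPKM, with a median of 0.552 RPKM. Cd68, a lysosomal glycoprotein of phagocytes, was the highest at 38.7 RPKM, followed by Olr1, a receptor for oxidized lipoprotein, at 12.6 RPKM and Scarb2, a lysosomal membrane protein, at 7.04 RPKM. In class B, Scarb1, the receptor for high-density lipoprotein, had 4.15 RPKM, and Cd36 was 0.361 times as high. In class A, Msr1 and Marco both exceeded Colec12 at 0.207 RPKM, Scara3 at 0.0136 RPKM and Scara5 at 0.00431 RPKM. Stab2, the partner of Stab1 in class H, was read at 0.538 RPKM, and Stab1 was 0.894 times as high. Sinusoidal endothelium expresses stabilins too. Of the 6 endothelial markers, Stab2 among them, Pecam1 had 1.95 RPKM and Cdh5, Kdr, Emcn and Tek had 0.00895 to 0.0372 RPKM. Which cells carried Stab1 and Stab2 was not tested.

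Mrc1 (ENSMUSG00000026712, chromosome 2, 14229392 to 14332057), the mannose receptor that takes up glycoproteins and is used as a marker of alternatively activated macrophages, had place 3 in the order at 10.1 RPKM (95% Poisson interval 9.91 to 10.3). Mrc2, its relative of fibroblasts, was read at 0.0238 RPKM, on 27 to 34 reads, so that Mrc1 was 424 times as high. A microRNA gene inside Mrc1, Mir511, was listed at 0. Lrp1 (ENSMUSG00000040249, chromosome 10, 127538161 to 127621148), a very large receptor for protease complexes, apolipoprotein E and calreticulin on dying cells, had 9.68 RPKM (9.56 to 9.79). The levels of Mrc1 and Lrp1 differed by a factor of 1.04. Their Poisson intervals did not overlap, but without the spread between samples the order of the pair is not settled.

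Within its family Lrp1 was exceeded only by Sorl1, a sorting receptor, at 129 RPKM and Lrp10 at 22.8 RPKM, among the 12 relatives measured. Lrpap1, the chaperone that keeps ligands off the family during folding, had 4.00 RPKM, or 0.414 times the level of Lrp1. Vldlr, Lrp2 and Lrp1b were at or below 0.0231 RPKM.

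Cd5l (ENSMUSG00000015854, chromosome 3, 87357881 to 87371073) had place 2 in the order at 13.9 RPKM (95% Poisson interval 13.5 to 14.3), above 92.1% of genes with a level above 0. It encodes AIM, a secreted protein with scavenger receptor cysteine-rich domains that protects macrophages from apoptosis and in mice is a target of liver X receptors. Of the 13 macrophage markers 9 were higher than Cd5l and 4 lower. Cd5l was 0.756 times as high as Vcam1, an adhesion molecule of BM macrophages, 2.41 times as high as Siglec1, a receptor of BM and spleen macrophages, and 5.23 times as high as Spic, a transcription factor of iron-recycling macrophages. All 8 genes for lipid-sensing and macrophage transcription factors reached 1 RPKM, with a median of 3.16 RPKM. Nr1h2 (liver X receptor beta) had 17.6 RPKM, Rxra 5.44 RPKM and Nr1h3 (liver X receptor alpha) 1.09 RPKM.

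**Figure D3:**
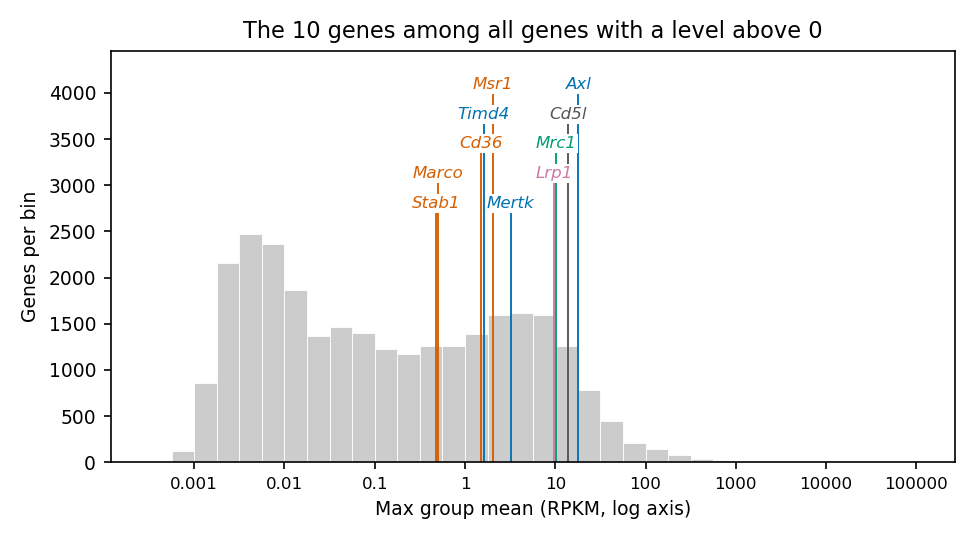
Number of genes per bin of Max group mean (RPKM, log axis) over all 28225 genes with a level above 0, with a line at the level of each of the 10 genes. The 10 genes lie between the 61.6th percentile for Stab1 and the 93.9th for Axl.

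Neutrophil markers were the most abundant of the marker sets, and the 10 genes all lay below the median of the macrophage markers. Neutrophil markers had a median of 2844 RPKM over 12 genes, from 177.5 RPKM for Cxcr2 to 19134 RPKM for S100a8 and 42151 RPKM for S100a9, the subunits of calprotectin, and S100a9 was 2341 times as high as Axl. The 13 macrophage markers had a median of 21.0 RPKM, led by the heme oxygenase gene Hmox1 at 62.6 RPKM and Csf1r, the receptor for CSF1, at 40.6 RPKM. Vcam1 was at 18.4 RPKM, 1.02 times the level of Axl. The 6 monocyte markers lay between 12.2 and 189 RPKM, with Ly6c2 and Fn1 the highest. Granulocyte precursor genes had a median of 61.2 RPKM, led by Elane and Mpo, which encode proteins of primary granules. Lymphoid markers were low, with medians of 0.439 RPKM for B cells (Cd79b and Cd79a the highest, at 3.54 and 1.78 RPKM), 0.0806 RPKM for T cells (Cd3d and Cd4, 1.97 and 1.08 RPKM) and 0.462 RPKM for NK cells (Nkg7 and Gzma, 17.1 and 1.05 RPKM). The medians were 0.283 RPKM for dendritic cells (Bst2 and Flt3 the highest) and 0.487 RPKM for megakaryocytes and platelets (Gp9 and Itga2b). They were 0.0305 RPKM for endothelium (Pecam1 and Stab2) and 0.0898 RPKM for stroma (Col1a1 and Cxcl12). Erythroid markers had a median of 11.6 RPKM, with the globin genes Hbb-bs and Hba-a2 highest, and those of eosinophils, basophils and mast cells 14.7 RPKM, led by Prg2 and Ear1. Itgb2, which pairs with the CD11b chain, had 439 RPKM, and the gene of the CD11b chain itself was not analysed here. A low level of a receptor in such a mixed fraction can stand for few cells that carry it or for little RNA in each, which cannot be told apart in bulk samples. Which cells carried the 10 genes was not tested.

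**Figure D4:**
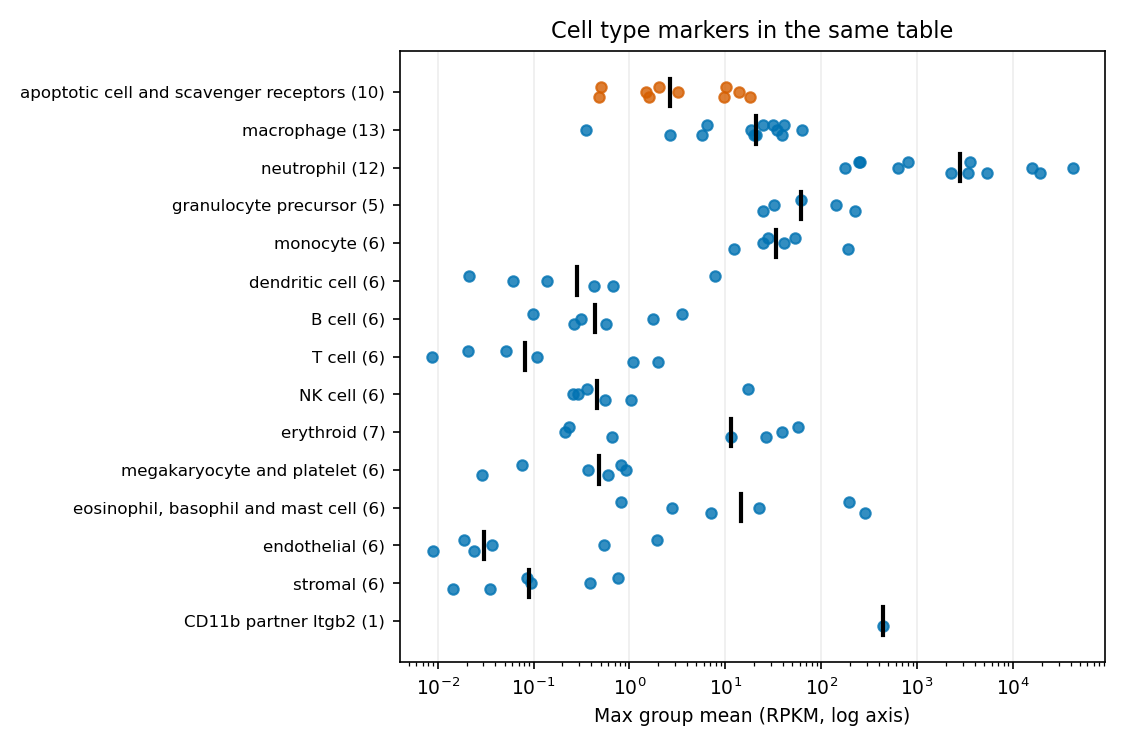
Max group mean in RPKM on a log axis for the 10 genes (orange) and 14 sets of cell type markers (blue), 1 point per gene, with the number of genes in brackets and a black line at each median. Neutrophil markers have a median of 2844 RPKM and macrophage markers 21.0 RPKM, and the 10 genes lie between 0.481 and 18.0 RPKM.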

How the data were processed

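RNA of CD11b+ BM cells was sequenced from stranded, ribosomal-RNA-depleted, paired-end libraries. The authors mapped reads to GRCm38 and ran a negative binomial model after edgeR to compare groups, and both names stand in the submitters' processing notes. No aligner, annotation release or version is named in the sources used here. Per the file headers the authors deposited a Max group mean per gene, here read as RPKM, and 5 columns of their own comparison (log2 fold change, fold change, p-value and 2 adjusted p-values), which were not used. A second table of 41 genes selected by that comparison was not used either. Of 41018 rows, 12793 had a level of 0.

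Exon lengths (overlapping exons merged) came from GENCODE vM21, which held 40934 of the gene IDs. Steps were products of level and length between 2 and 7 that recurred in at least 100 genes within a relative tolerance of 1e-05, and the recovery was tested on simulated data. Reads were bounded by the largest and smallest step, and the smaller number gave the exact Poisson interval. Percentiles are shares of genes with a lower level. The work used scipy 1.17.1, numpy 2.4.6 and pandas 2.3.3 in Python 3.11.15.

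The 10 genes and the lists were chosen with earlier results of these data known, including the comparison of PC-EV-educated and PBS mice, so they are not a neutral sample. Named genes are the 10 genes, the 3 most abundant of each related list, those at 0 and the 2 most abundant of each marker list. A few genes under this rule are not reported here. Other genes were named after their values were seen. Protein sequences were not used here, so the protein lengths and identities set in the design were not computed. No promoter was matched for Msr1.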

Additional observations from a re-analysis of the deposited data

How the results depend on the processing

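The median of the 10 genes stood above 75.9% of genes with a level above 0, above 51.9% of genes at 0.1 RPKM or more, above 26.2% of genes at 1 RPKM or more and above 64.8% of genes with a RefSeq protein. For single genes all 28 percentiles under these alternatives were lower than the one reported, because the genes left out lay mostly, though not all, at lower levels. The count of genes at the minimum was 8 at 1 RPKM, 10 at 0.1 RPKM and 3 at 10 RPKM. The share of the summed level was 0.0151%, or 0.0152% without mitochondrially encoded and ribosomal RNA genes, 0.0106% without Axl and 0.0207% without the 7SK and 7SL RNA genes, the last added after seeing the data. Multiplying levels by exon length, also added after seeing the data, put Lrp1 in place 1, Axl in place 2 and Cd5l in place 4 and left Mrc1, Mertk and Msr1 in place, so the order holds per kilobase only. The planned order by protein length was not run. Leaving out samples was not possible with 1 value per gene. No paired analysis was possible because each gene has 1 pooled value. Depth limits Marco most, while the intervals of Axl and Lrp1 are within a few percent. The spread between mice, which counting intervals do not cover, is unknown.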

Other observations

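The promoters of the 10 genes differed in base composition. Over the 250 bases before the start, the median of all promoters was 52.4% G and C with 6 CpG pairs. Lrp1 had 67.2% and 13 pairs and Mertk 63.6% and 7 pairs, whereas Cd5l with 46.8% and Marco with 47.6% had 0 pairs. Of the 9 promoters 5 had at most 4 pairs, against 44.4% of all promoters.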
